A study of Mus musculus with 8 samples.

Results

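The genes described here are the developmental transcription factors of 11 homeobox, paired-box, Gata, Sox and Fox groups (Hox, Dlx, Msx, Nkx, Irx, Lhx, sine oculis, Pax, Gata, Sox and Fox) in mouse induced pluripotent stem cells leaving mitosis. These genes, and the role lists used further on, were chosen with earlier results of these data known. The genes were taken by symbol from the deposited table: Hox genes of all 4 clusters, Dlx1 to Dlx6, Pax, Gata1 to Gata6, Lhx, the numbered sine oculis genes, Nkx, Irx, Msx, numbered Sox genes other than Sox2 and Sox3, and Fox genes of subclasses a to h that are numbered 1 to 4. This gave 106 of the 14861 genes in the table. PRO-seq, which reads engaged RNA polymerase by letting it extend its nascent RNA with labelled nucleotides, was applied to clonal FUCCI2 iPSCs, which carry a cell-cycle reporter, kept on irradiated feeder cells in KO-DMEM with FBS, LIF and 2i (a MEK inhibitor and a GSK3 inhibitor). The groups were mitotic cells (nocodazole at 200 ng/ml for 6 h, then shake-off), the same preparation released into fresh medium for 1 h or for 3 h, and asynchronous cells that received no nocodazole. All of them share the clonal line, the feeders and the medium, so nothing here separates a property of this clone from one of the cell type. The labels list 2 libraries per group and the table holds 1 combined value per gene and group. No difference below therefore has a replicate check, no p-value or SD is given, and each value is the authors'. The 1 h release was matched by meaning to the column for early G1, and the 3 h release to that for late G1.

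Hox genes encode homeodomain proteins that give the body axis its regional identity, and they lie in 4 clusters in the order of their domains along that axis. Dlx, Msx, Nkx, Irx, Lhx and sine oculis factors carry homeodomains as well, Pax factors a paired domain, Gata factors zinc fingers, Sox factors an HMG box and Fox factors a forkhead domain, and each family has members that specify particular tissues. In pluripotent cells many of these genes are held at low activity by Polycomb complexes while their promoters stay accessible.

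The promoters of 7 genes are shown because these genes span the range of behaviour described below. Foxd3 and Hoxa2 had signal well above the median gene and stayed within 2-fold of asynchronous cells in both releases. Lhx1, Foxb2 and Nkx2-9 had the 3 highest late G1 to asynchronous ratios of the group, and Nkx1-2 and Sox12 the 2 lowest. They were picked after their values were seen. Each line gives the 150 bases before the RefSeq start site (GRCm38.p6), 5′ to 3′ on the gene's strand, with CpG dinucleotides in capitals.
Foxd3: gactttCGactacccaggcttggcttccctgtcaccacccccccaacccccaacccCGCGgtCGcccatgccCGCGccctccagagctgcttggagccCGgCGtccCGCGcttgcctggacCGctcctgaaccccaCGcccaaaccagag
Hoxa2: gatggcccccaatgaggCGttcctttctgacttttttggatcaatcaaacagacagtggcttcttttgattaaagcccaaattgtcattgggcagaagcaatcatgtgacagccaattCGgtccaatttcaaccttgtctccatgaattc
Lhx1: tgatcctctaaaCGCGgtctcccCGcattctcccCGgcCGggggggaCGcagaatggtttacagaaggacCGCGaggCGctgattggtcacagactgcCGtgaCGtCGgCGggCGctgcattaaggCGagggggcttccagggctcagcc
Foxb2: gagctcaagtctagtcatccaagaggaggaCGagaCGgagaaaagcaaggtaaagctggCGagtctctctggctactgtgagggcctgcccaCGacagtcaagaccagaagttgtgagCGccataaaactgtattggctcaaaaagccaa
Nkx2-9: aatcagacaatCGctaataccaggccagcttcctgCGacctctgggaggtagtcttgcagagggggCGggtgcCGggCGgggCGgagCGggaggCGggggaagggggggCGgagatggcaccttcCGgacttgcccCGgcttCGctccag
Nkx1-2: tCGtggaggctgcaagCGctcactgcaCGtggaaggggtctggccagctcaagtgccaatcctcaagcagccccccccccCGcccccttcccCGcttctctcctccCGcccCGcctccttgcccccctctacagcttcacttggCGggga
Sox12: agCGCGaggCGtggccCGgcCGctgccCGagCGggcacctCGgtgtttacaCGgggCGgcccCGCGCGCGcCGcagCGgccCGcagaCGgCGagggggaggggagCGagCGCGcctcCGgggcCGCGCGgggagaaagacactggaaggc
These stretches lie at chr4:99656149-99656298 on the plus strand and, on the minus strand, at chr6:52164832-52164981, chr11:84525535-84525684, chr19:16873831-16873980, chr12:56613285-56613434, chr7:132599638-132599787 and chr2:152398047-152398196. Their start sites coincide with the TSS in the table, except for Lhx1 (1 bp away) and Sox12 (17 bp away). Among 11496 genes of the table with a RefSeq promoter on the same strand the median was 11.0 CpGs in this window, and the quartiles were 6.0 and 15.0. Sox12, with 26 CpGs and 80.0% G and C, lay above 97.0% of them, and Hoxa2, with 2 CpGs and 43.3%, above 7.42%. Lhx1 had 15, Foxd3 and Nkx2-9 each had 12, Nkx1-2 had 8 and Foxb2 had 5, so the 3 genes with the highest late G1 ratios had CpG counts from just under that middle range to its upper end. The letters TATAAA occurred in none of the 7 windows on either strand, against 3.74% of all windows. CCAAT, searched on both strands, occurred 4 times before Hoxa2 and 1 time each before Lhx1, Foxb2 and Nkx1-2, and 27.5% of all windows hold it. A match of letters is a description of the sequence and not a binding site. A comparison of base composition between the 106 genes and all genes was void, because only 73 (68.9%) had an entry, under the share needed for such a check.

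Most of these regulators had little nascent transcription. Their median signal in asynchronous cells was 3.54, against 9.43 for all genes, and 59 of 106 (55.7%) lay below the lower quartile of all genes. The same held in early G1 (median 3.14 against 11.8), in late G1 (4.31 against 10.9) and in mitosis (0.196 against 0.489). Together the 106 genes held 0.327% of the column total in asynchronous cells, 0.335% in mitosis, 0.296% in early G1 and, with the highest share, 0.413% in late G1. The sources used here do not state whether the signal was divided by gene length, so a level set against that of another gene is on the authors' scale and not per length. The same signal can come from few cells at high activity or many at low activity, and in bulk libraries fewer cells and less transcription per cell cannot be told apart.

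Family medians ranged widely. In asynchronous cells the family median of the authors' signal was 9.27 for Hoxc, 8.90 for the sine oculis genes, 7.28 for Sox and 4.88 for Fox, and it was lowest for Lhx (1.17), Pax (1.36), Gata (1.90) and Hoxd (2.16). Within families the spread was wide: Sox genes ran from 0.676 (Sox6) to 150.2 (Sox15), Fox genes from 0.204 (Foxb1) to 70.9 (Foxh1) and Nkx genes from 0 (Nkx2-6) to 27.0 (Nkx6-2). The 5 Pax genes lay within a narrow band of 1.23 to 1.73. Of the 106 genes, 26 had a mean signal over the 4 columns at or above that of the median gene (8.49), among them 6 Sox, 6 Hox, 4 Fox, 4 Nkx and 3 sine oculis genes, and none of the Pax, Irx, Msx and Hoxd genes did.

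**Figure D1:**
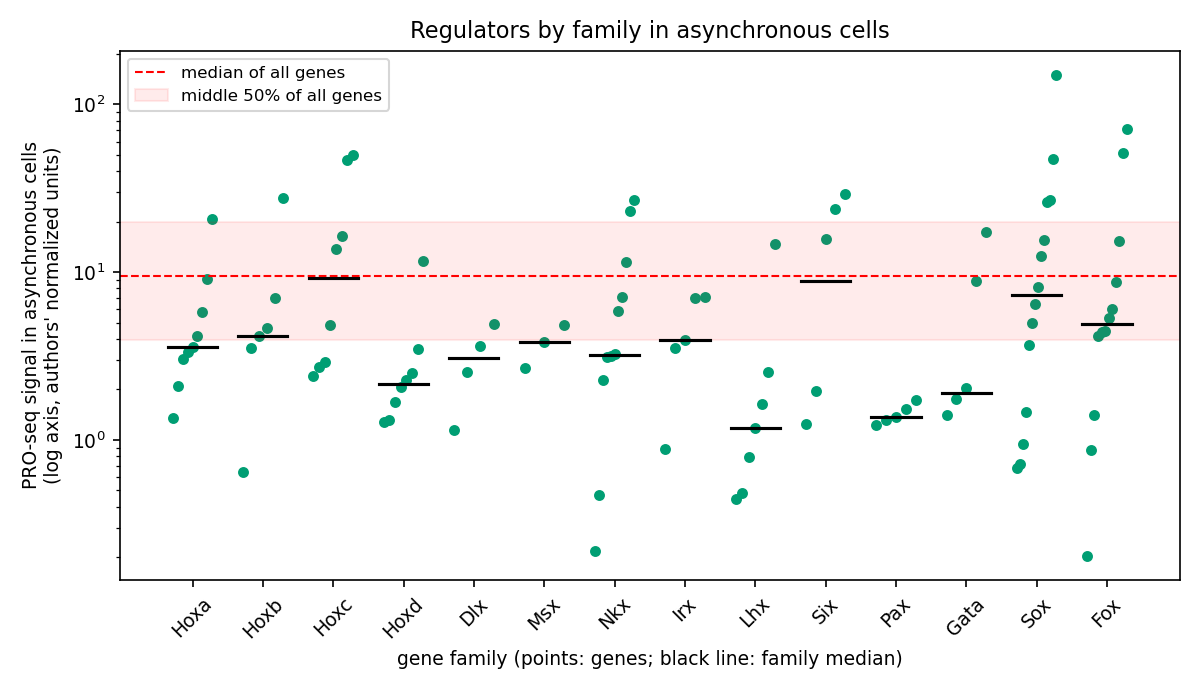
PRO-seq signal in asynchronous cells on a log axis, in the authors' normalized units, for each gene (points) of 14 families, with the family median (black line), the median of all genes (dashed) and their middle 50% (band). Genes at 0 (Gata5, Hoxb1, Nkx2-6 and Six6) enter the medians and are not drawn as points; most points lie under the dashed line at 9.43, and Sox15 is highest at 150.2.

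The forkhead and Sox genes at the top include factors that work in pluripotent cells. Sox15, a Sox gene transcribed in mouse embryonic stem cells, had a signal of 7.62 in mitosis, then 143 in early G1 and 144 in late G1, against 150.2 in asynchronous cells. Foxd3, a forkhead factor needed by the epiblast, had 2.31, 47.6, 61.8 and 51.6 in the same order. Foxh1, the forkhead partner of the SMAD proteins in Nodal signalling, had 2.16, 41.2, 44.7 and 70.9. All 3 were low in mitosis only, and their release values lay within 2-fold of the asynchronous value. Sox15 overlaps Mpdu1 and Foxh1 overlaps Kifc2, both on the opposite strand. Kifc2 had 80.2 in early G1, against 44.1 in asynchronous cells, and Mpdu1 had 70.7 and 56.4. The sources used here do not state whether counting used strand, so the reads of such pairs cannot be told apart.

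Other Sox genes of this level took different courses. Sox12, of the SoxC group, had 1.53 in mitosis, then 28.8 in early G1 and 15.2 in late G1, against 47.3 in asynchronous cells, and so was 1.63 lower on the log2 scale in late G1 than in asynchronous cells. Sox10, a neural crest and glial factor, went the other way, with 0.582, 33.4, 11.5 and 6.43, a difference of 2.36 between early G1 and asynchronous cells. It was the sole gene of the 26 that was at least 2-fold lower in late G1 than in early G1. Sox18, an endothelial factor, had 0.557, 6.95, 12.6 and 26.9 and stayed at least 2-fold below asynchronous cells in both releases. Sox1, an early neural factor, had 1.26, 19.7, 20.5 and 26.2, and Sox21, another neural factor, 1.01, 27.0, 17.9 and 15.6. These last 2 remained within 2-fold of the asynchronous value, although both table start sites lie inside a noncoding RefSeq gene (Sox1ot and Gm4675).

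Among the homeobox genes outside the Hox clusters, Nkx2-9, which acts in the ventral neural tube, had 1.22 in mitosis, then 28.3 in early G1 and 61.3 in late G1, against 5.83 in asynchronous cells. Dlx4, a Dlx gene active in the placenta, had 0.191, 2.97, 33.2 and 4.92, with the high value in late G1 alone. The neural and oligodendrocyte factor Nkx6-2 had 3.35, 23.1, 56.0 and 27.0. All 3 were at least 2-fold above both early G1 and asynchronous cells in late G1, but the call of Nkx6-2 against asynchronous cells rests on the scaling (log2 ratio 1.05) and did not hold with other scalings. Nkx6-3, a stomach factor, had 0.853, 8.35, 21.1 and 23.1 and was low in early G1. Nkx2-4 had 1.12, 14.6, 15.5 and 7.07. The neighbours Nkx2-9 and Gm26973, Dlx4 and Dlx4os, and Nkx6-2 and Inpp5a overlap in RefSeq. Inpp5a, on the strand opposite to Nkx6-2, had 6.75, 7.62 and 5.41 from early G1 to asynchronous cells.

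The remaining genes of this level differed less between columns. Six5 and Six4, sine oculis factors, had asynchronous values of 29.3 and 23.9, early G1 values of 25.1 and 26.0 and late G1 values of 35.3 and 18.8. Lhx6, a factor of cortical interneurons, had 13.1 in early G1 and 12.6 in late G1, against 14.8 in asynchronous cells. Gata3, a factor of trophoblast and T cells, had 27.3, 22.9 and 17.4 in those columns. Foxe1, a thyroid factor, stood out among them, with 15.5, 30.2 and 8.68. In mitosis these 5 genes had 0.482 (Gata3) to 2.05 (Six5). Over all 26 genes, 15 stayed within 2-fold of asynchronous cells in both releases, where 61.6% of all genes did.

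**Figure D2:**
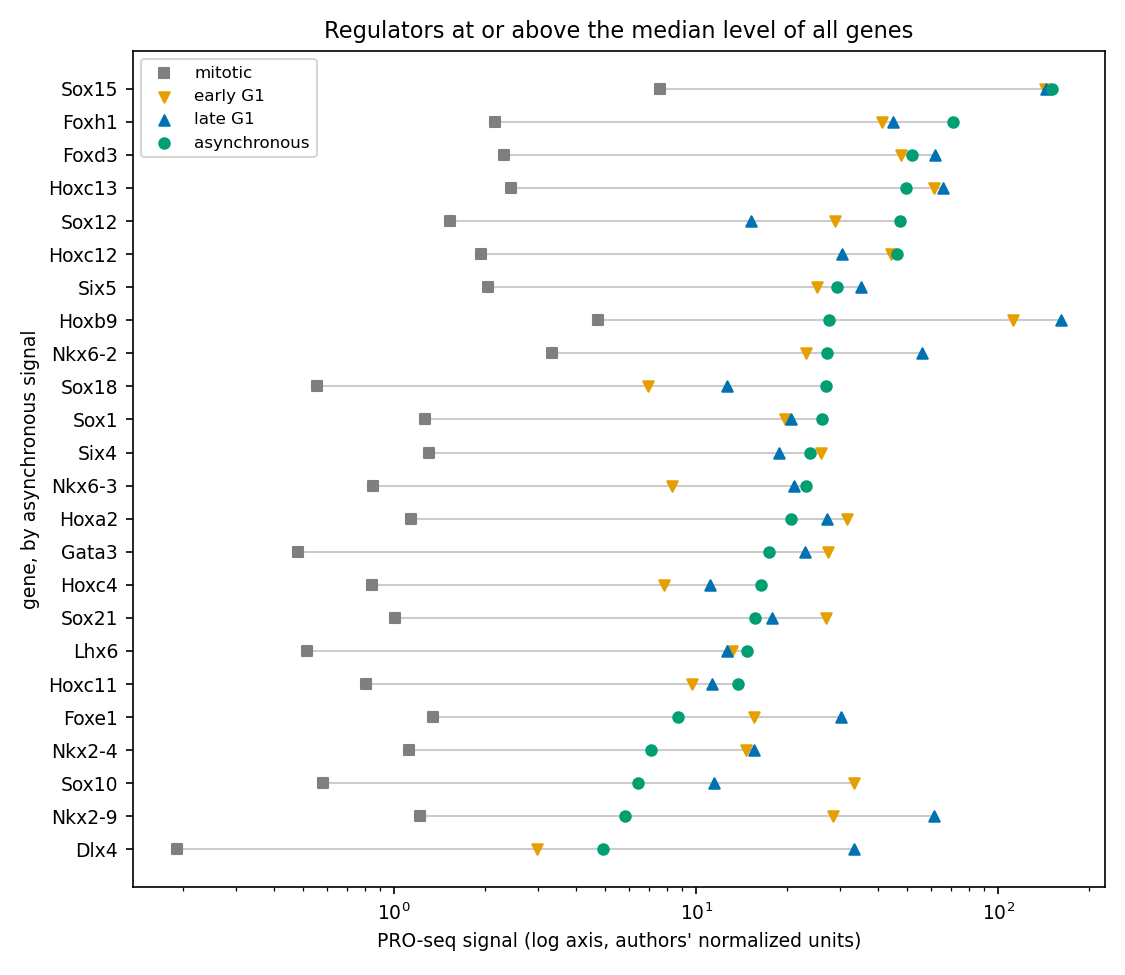
PRO-seq signal on a log axis, in the authors' normalized units, of 24 of the 26 genes with a mean at or above that of the median gene, ordered by asynchronous signal, with 1 symbol per column and no replicates. The mitotic symbol is leftmost in each row; Nkx2-9, Dlx4 and Hoxb9 have late G1 values far to the right of the asynchronous ones, and Sox12 and Sox18 have release values to the left.

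The 32 Hox genes of the table differed between clusters and between neighbours in a cluster. On chromosome 15, the posterior end of the Hoxc cluster held its highest values: Hoxc13 had 2.44 in mitosis, then 61.1 in early G1 and 65.8 in late G1, against 49.7 in asynchronous cells, and Hoxc12 had 1.94, 44.2, 30.3 and 46.4. Their neighbour Hoxc11 had 0.809, 9.67, 11.3 and 13.7, and the next gene, Hoxc10, 0.157, 1.51, 1.84 and 2.41. In every column the values on the authors' scale were thus lower from gene to gene over the 45.7 kb between the start sites of Hoxc13 and Hoxc10. At the other end, Hoxc4 had 0.848, 7.82, 11.1 and 16.4, while Hoxc6 stood out in late G1, with 0.290, 3.87, 15.0 and 2.92. Hoxc5 (2.78, 6.97 and 4.81 from early G1 to asynchronous cells) is uncertain, since its transcript in the table starts inside Hoxc10, and Hoxc9 had 1.52, 5.03 and 2.72.

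In the Hoxb cluster, on chromosome 11, Hoxb9 held 58.0% of the cluster's asynchronous signal. Its values were 4.75 in mitosis, then 112 in early G1 and 161 in late G1, against 27.5 in asynchronous cells, the highest late G1 value of the 106 genes and a log2 ratio of 2.54 to asynchronous cells. The adjacent Hoxb8 had 0, 6.36, 1.16 and 0.645, so it was high in early G1 only, and Hoxb7 had 0.0839, 5.46, 3.90 and 3.52. Hoxb1, the most anterior gene, was listed at 0 in mitosis and in asynchronous cells and had 2.55 in early G1 and 0.518 in late G1. Hoxb2 went the other way, with 0.272, 0.582, 1.77 and 4.19, as did Hoxb13 with 0.369, 1.32, 2.23 and 4.63 and Hoxb4 with 0.122, 3.18, 5.95 and 6.97. These 3 had their highest value in asynchronous cells.

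In the Hoxa cluster, on chromosome 6, the anterior gene Hoxa2, which patterns the hindbrain and branchial arches, had the highest signal, with 1.14, 31.6, 27.0 and 20.6. Hoxa5 had 0.358, 10.1, 10.6 and 9.10, values that hardly differ outside mitosis. The posterior Hoxa10 had 0.209, 1.17, 1.25 and 3.57, and Hoxa9 had 0, 2.60, 3.98 and 5.76, so both were highest in asynchronous cells. Hoxa7 had 0.103, 0.233, 4.03 and 1.35 and so had little signal in early G1 as well as in mitosis. Hoxa3, Hoxa4 and Hoxa5 share sequence in RefSeq, because the Hoxa3 span covers the other 2 genes, and so their signal may be split between them.

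The Hoxd cluster, on chromosome 2, had no gene at or above the median level of the table. Hoxd9 was highest, with 0.404 in mitosis, then 5.77 in early G1 and 9.38 in late G1, against 11.7 in asynchronous cells, followed by Hoxd8 with 0.243, 3.90, 6.18 and 3.50. Hoxd1 was listed at 0 in late G1 and had 3.61 in early G1, against 2.49 in asynchronous cells. The other 5 genes stayed between 1.04 and 4.17 outside mitosis. Hoxd3 and Hoxd4 have start sites 2 bp apart in the table, and their values of 1.37 and 1.46 in early G1 cannot be assigned to either gene with certainty. Hoxd10 and Hoxd11 overlap on the same strand in RefSeq, so their values, and the lower calls of Hoxd11 in late G1 given below, are uncertain too. Across the clusters, median asynchronous signal was 3.35 for the 7 genes of paralog groups 1 to 3, 3.50 for the 11 of groups 4 to 8 and 4.10 for the 14 of groups 9 to 13, with wide and overlapping ranges.

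**Figure D3:**
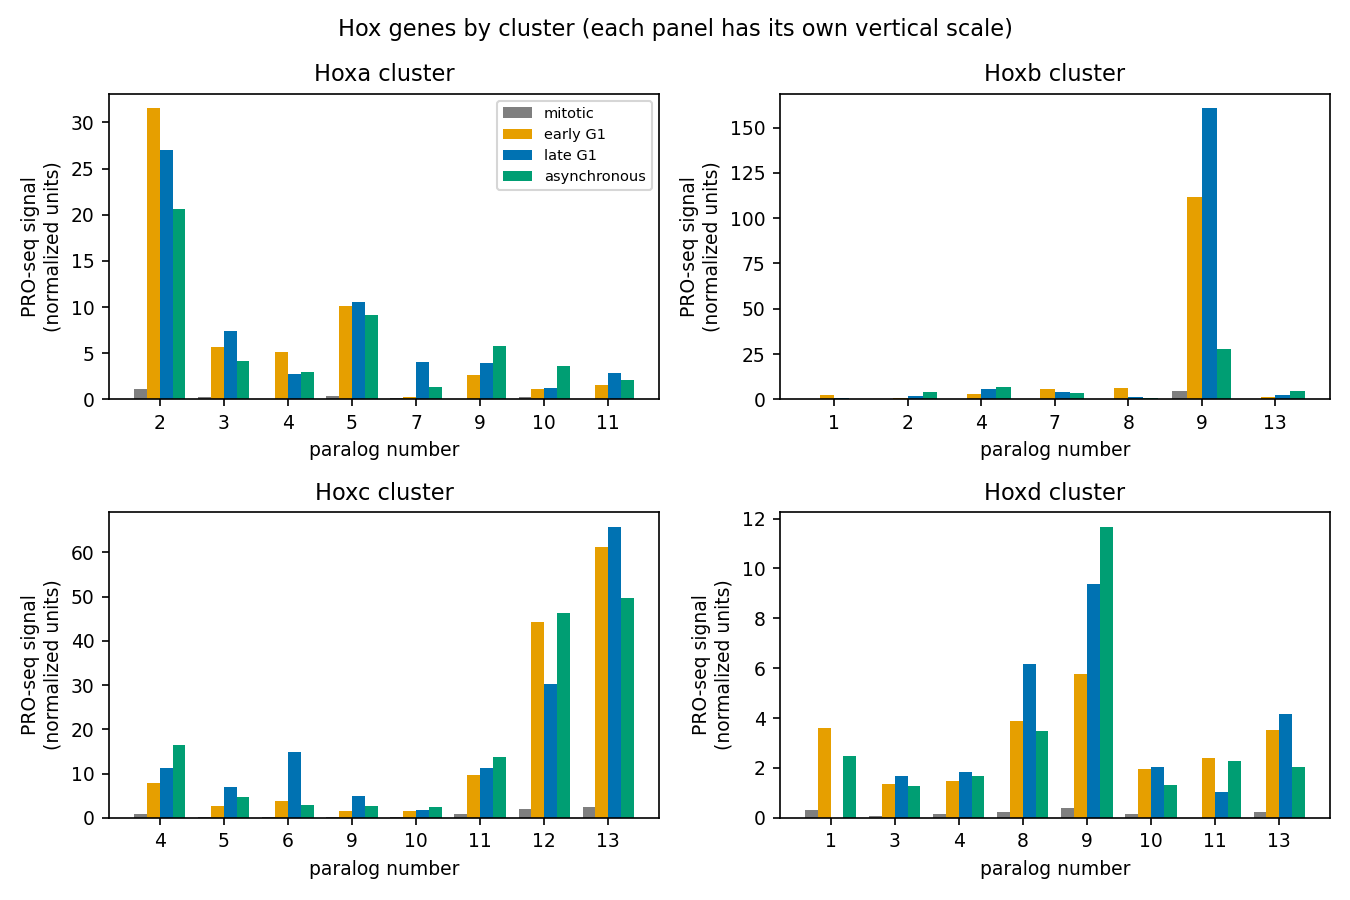
PRO-seq signal (authors' normalized units, linear axis from 0, a different scale in each panel) of 31 of the 32 Hox genes by cluster and paralog number, with 1 bar per column and no replicates. Single genes dominate: Hoxb9 in its cluster, Hoxc12 and Hoxc13 in theirs, Hoxa2 and, in asynchronous cells, Hoxd9.

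In mitosis these genes were low, as was the rest of the table. Of the 95 with a measured ratio, 93 were at least 2-fold lower in mitotic than in asynchronous cells, where 99.1% of all genes tested were, and none was at least 2-fold higher (0.0208% of all genes were). Ratios are log2 of the signal plus 0.1, which understates the change of low genes, and the counts use genes with a mean signal of at least 0.5 that are not listed at 0. The median log2 ratio was -3.39, against -3.89 for all genes. Without the pseudocount the gap was smaller: the 95 genes kept a median of 5.81% of their asynchronous signal and all genes 5.36%. The 2 genes within 2-fold were Nkx1-1 (0.183 in mitosis and 0.218 in asynchronous cells) and Foxb2 (0.465 and 0.873), both barely transcribed in asynchronous cells. Nkx1-2, a factor of the posterior neural plate, had the lowest ratio, with 0.0637 and 11.5. Rescaling the columns to equal medians, which takes away the general fall by construction, left 10 genes at least 2-fold lower and 21 at least 2-fold higher (6.94% and 9.54% of all genes), and quantile normalization left 8 and 19 (6.72% and 8.58%).

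In early G1 nearly all of them had more signal than in mitosis. Of 96 genes with a ratio, early G1 exceeded mitosis by 2-fold or more in 93 (99.3% of all genes) and none was lower (0.00692%), with a median log2 ratio of 3.43 against 4.21 for all genes. Among the highest ratios were those of Sox10 (0.582 in mitosis and 33.4 in early G1), Gata3 (0.482 and 27.3) and Sox11 (0.141 and 11.2). The 3 genes within 2-fold, Foxb2, Hoxb2 and Hoxa7, had early G1 values of 0.902, 0.582 and 0.233, and mitotic values of 0.465, 0.272 and 0.103. With equal medians 11 genes were at least 2-fold higher and 30 lower (4.88% and 13.7% of all genes), and with quantile normalization 12 and 18 (5.54% and 8.91%). Both rescalings set the general ratio near 0 by construction, so these counts are relative to the median gene.

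Set against asynchronous cells, early G1 was split. Of 102 genes, 15 were higher and 18 lower by 2-fold or more, with 17.7% and 9.53% of all genes in these classes, and the median log2 ratio was -0.05 against 0.30 for all genes. For genes below the median level the background was 17% higher and 13.9% lower, and the 76 regulators there gave 11 (14.5%) and 15 (19.7%). At or above it the background was 18.4% and 5.24%, and the 26 regulators gave 4 and 3. The lowest ratios belonged to Gata2, a blood stem cell factor (0.954 in early G1, 8.80 in asynchronous cells), Hoxb2 (0.582 and 4.19) and Msx3 (0.727 and 3.82). The highest belonged to Foxb1, a forkhead factor of the neural tube (3.87 and 0.204), Hoxb8 (6.36 and 0.645) and Nkx1-1 (2.57 and 0.218). With equal medians the split was 9 higher and 27 lower (8.65% and 14.8% of all genes), and with quantile normalization 12 and 21 (9.32% and 11.1%). All 18 lower calls held under both rescalings, and 9 of the 15 higher calls did.

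Between early and late G1, more of these genes were higher than lower. Of 104 genes, late G1 exceeded early G1 by 2-fold or more in 28 (26.9%) and fell short of it by as much in 8 (7.69%), where 15.1% and 7.52% of all genes did. Much of this goes with level: among all genes below the median level 24.6% were higher and 6.71% lower, beside 24 (30.8%) and 7 of the 78 regulators in that range. At or above it the background was 5.88% and 8.32%, and of 26 regulators 4 (15.4%) were higher, Dlx4, Nkx2-9, Nkx6-2 and Nkx6-3, and 1 was lower, Sox10. The median log2 ratio was 0.43, against -0.08 for all genes. With quantile normalization 18 were higher and 15 lower (10.8% and 8.25% of all genes), and 17 of the 28 higher calls remained. With a minimum mean signal of 2.5, 15 of 61 were higher and 3 lower, beside 1255 and 972 of the 12238 genes tested at that minimum.

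The genes with the highest late to early G1 ratios came from several families. Foxb2 had 0.902 in early G1 and 15.4 in late G1, Hoxa7 0.233 and 4.03, Dlx4 2.97 and 33.2, Gata2 0.954 and 7.60, and Lhx1, a LIM homeobox gene of the head organizer and kidney, 3.42 and 20.4. In late G1 Gata2 lay near its asynchronous value, whereas Foxb2, Dlx4 and Lhx1 lay above theirs. The genes at least 2-fold lower in late G1 were Hoxb8, Hoxb1, Six2, Sox11, Sox10, Foxc2, Foxb1 and Hoxd11. Sox11, a SoxC factor of neurons, had 11.2 and 3.32, Six2, a factor of kidney progenitors, 2.70 and 0.714, and Foxc2, a mesenchyme and vessel factor, 6.67 and 2.78. The calls of Foxb1 and Hoxd11 did not hold with equal medians, and the other 6 held under both rescalings.

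Late G1 against asynchronous cells gave 24 genes at least 2-fold higher and 7 lower among 101. The shares of 23.8% and 6.93% stood beside 16.9% and 5.14% of all genes, and beside 22% and 5.43% of those below the median level, where 18 (24.0%) and 5 (6.67%) of 75 regulators stood. At or above that level the background was 11.9% and 4.85%, and the 26 regulators gave 6 and 2. The median log2 ratio was 0.35 against 0.21 for all genes. Lhx1 had the highest ratio, with 20.4 in late G1, against 0.444 in asynchronous cells (log2 5.23, above 99.98% of all genes). Foxb2 followed with 15.4 and 0.873, and Nkx2-9 with 61.3 and 5.83. The lowest ratios were those of Nkx1-2 (2.47 and 11.5), Sox12 (15.2 and 47.3) and Hoxa10 (1.25 and 3.57). Of the 24 higher calls, 19 held under both equal medians and quantile normalization, and all 7 lower calls did. The number of lower genes nevertheless went from 7 to 15 with quantile normalization (10% of all genes).

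LIM homeobox and Nkx genes made up 10 of these 24. Of 7 Lhx genes, 4 exceeded asynchronous cells by 2-fold or more in late G1 and none was at least 2-fold lower, with a median log2 ratio of 1.88. Over all genes 16.9% were higher and 5.14% lower in this comparison, and 22% and 5.43% below the median level. Several ratios in these families rest on low asynchronous values, such as 0.444 for Lhx1, whose counting error is unknown. Besides Lhx1, Lhx4, a pituitary factor, had 4.02 and 0.483, Lhx5, a forebrain factor, 8.12 and 1.17, and Lhx3, of the pituitary and motor neurons, 6.26 and 1.62. The Lhx median stayed at 1.67 with equal medians and 1.52 with quantile normalization. Among 11 Nkx genes 6 were higher and 1 lower, with a median of 1.05 (0.84 and 0.89 after rescaling). With either rescaling 4 were higher and 1 lower, as the calls of Nkx2-4 and Nkx6-2 did not hold. The higher ones included Nkx2-2, a factor of ventral neural tube and pancreas (18.5 and 3.10), Nkx2-1, of lung, thyroid and forebrain (2.95 and 0.470), and Nkx1-1 (1.95 and 0.218). Of the 5 Pax genes, 3 (Pax5, Pax6 and Pax7) were higher, with late G1 values of 3.18, 3.78 and 3.31, but none of these calls held under both rescalings. None of the 14 Sox genes was at least 2-fold higher, and Sox12 and Sox18 were lower. Hox genes split evenly, 4 higher (among them Hoxa7, Hoxb9 and Hoxc6) and 4 lower (Hoxa10, Hoxb2, Hoxb13 and Hoxd11) of 30, and their median changed sign with scaling, from 0.29 to 0.09 with equal medians and -0.33 with quantile normalization.

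The 2 releases can be read side by side, since both are set against the same asynchronous column. In 10 of 101 genes the signal was at least 2-fold above asynchronous cells in both releases (among them Foxb1, Hoxb9, Lhx1, Lhx3, Nkx1-1, Nkx2-1, Nkx2-2, Nkx2-4 and Nkx2-9), in 5 in early G1 only (Hoxb8, Six2, Sox9, Sox10 and Sox11), and in 14 in late G1 only, among them Dlx4, Foxb2, Foxa1, Gata6, Hoxc6 and Irx3. Another 5 were at least 2-fold below in both (Hoxa10, Hoxb2, Hoxb13, Nkx1-2 and Sox18), 13 in early G1 only and 2 in late G1 only. Hoxa7, counted in 2 of these classes, was below in early G1 and above in late G1. The higher calls in early G1 of Lhx3, Nkx2-2, Nkx2-4, Six2, Sox9 and Sox11 did not hold under both rescalings. Nor did those in late G1 of Nkx2-4, Nkx6-2, Pax5, Pax6 and Pax7. The share above in both was 9.90%, against 7.37% of all genes and 8.16% of those below the median level. Above in early G1 only it was 4.95%, against 10.3% and 8.77%, and above in late G1 only 13.9%, against 9.47% and 13.7%, so the last share is that of other genes of low level. Below in both it was 4.95%, against 2.62% and 3.16%, below in early G1 only 12.9%, against 6.87% and 10.7%, and below in late G1 only 1.98%, against 2.38% and 2.05%. The other 53 (52.5%) stayed within 2-fold in both, as did 61.6% of all genes and 54.5% of those below the median level.

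**Figure D4:**
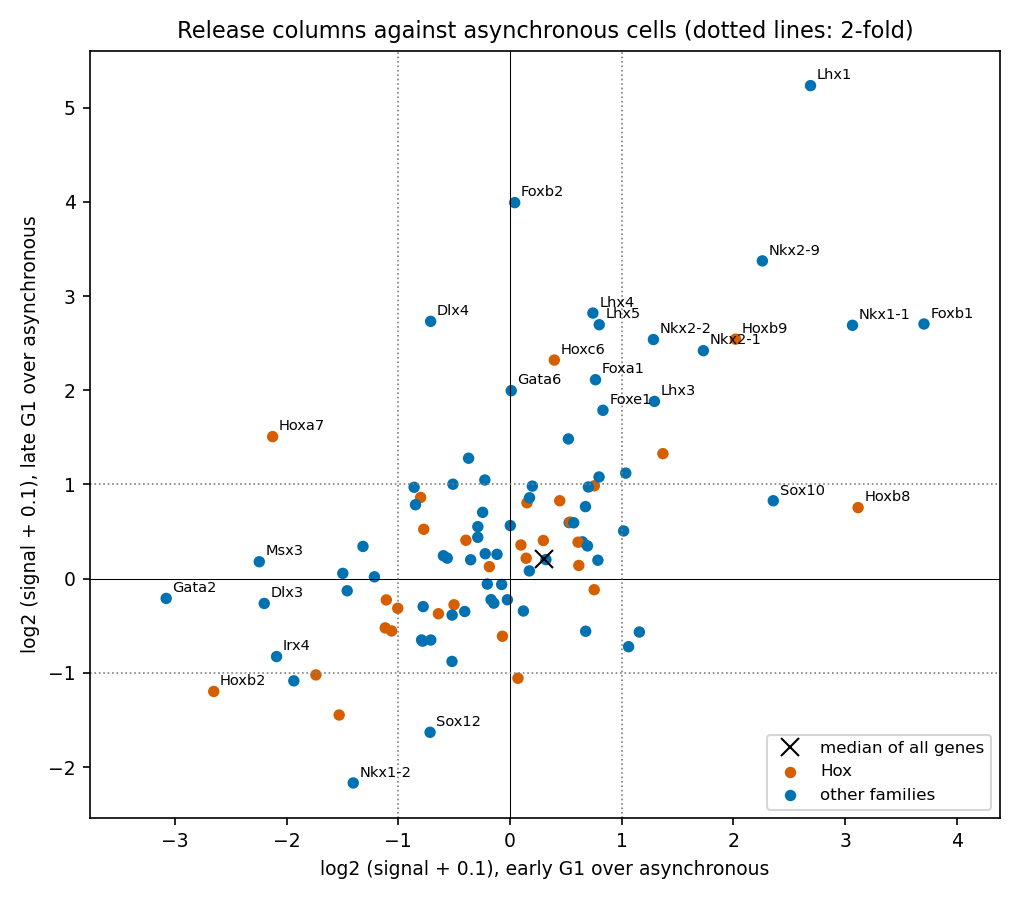
Log2 ratio of (signal + 0.1) to asynchronous cells in early G1 (horizontal) and late G1 (vertical) for the genes with both ratios, Hox genes in orange and other families in blue, with 2-fold lines dotted and the median of all genes as a cross. Both axes share the asynchronous column; Lhx1 is at the top, Foxb2 and Dlx4 are high in late G1 alone, Hoxb8 and Sox10 are high in early G1 alone, and Gata2 and Hoxb2 are low in early G1.

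The column in which a gene had its highest signal was late G1 for 56 of the 106 genes (52.8%), asynchronous cells for 29 (27.4%) and early G1 for 21 (19.8%). For all genes these shares were 34.1%, 21.8% and 44.1%, and for genes below the median level 44.3%, 22.1% and 33.6%. No test applies to these shares, and level was not held equal, as 60 of the 106 lay below the lower quartile of mean signal. The temporal class that the authors' deposited table gives each gene, made from unstated rules on these same values, placed 40 of the 106 in the class named Transient (37.7%, against 24.7% of all genes), 25 in Gradual (23.6% and 15.4%), 22 in Early_Spike (20.8% and 33.6%) and 19 in Early_Plateau (17.9% and 26.3%). Among all genes below the median level 34.7% were Transient, 18.6% Gradual, 26.5% Early_Spike and 20.2% Early_Plateau. The 80 regulators at that level gave 43.75%, 22.5%, 21.25% and 12.5% in the same order. All 40 Transient regulators had their highest signal in late G1, as did all but 1 of the 3664 genes so labelled, so the class and the highest column are not separate observations.

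**Figure D5:**
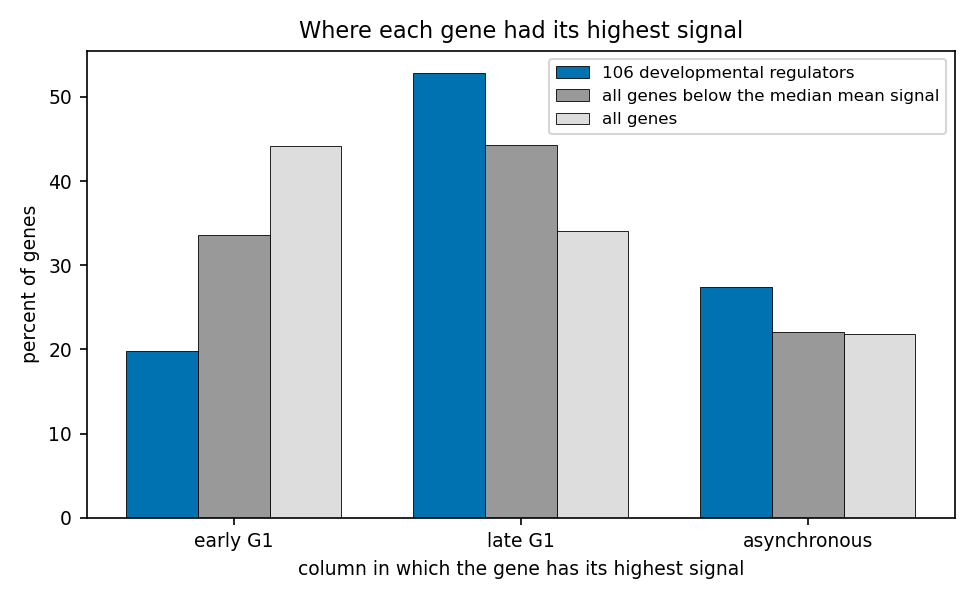
Percentage of genes (linear axis from 0) whose highest signal lay in early G1, late G1 or asynchronous cells, for the 106 regulators, for all genes below the median mean signal and for all genes. The late G1 bar is 52.8%, 44.3% and 34.1%, and the early G1 bar 19.8%, 33.6% and 44.1%.

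By tissue role, most endoderm and extraembryonic endoderm factors had more signal in late than in early G1. Of 10 measured genes 9 had a ratio, and 7 had at least 2-fold more signal in late than in early G1, with a median log2 ratio of 1.35 (1.45 with equal medians and 0.99 with quantile normalization, where 4 were higher). The background was 15.1% of all genes and 24.6% of those below the median level, where all but 1 of the 10 lie. Gata6, the primitive endoderm factor, had 0.172 in mitosis, then 1.77 in early G1 and 7.29 in late G1, against 1.75 in asynchronous cells, and Gata4 had 0.0334, 0.437, 1.48 and 1.42. Foxa1, a pioneer factor of endoderm, had 0.146, 2.48, 6.45 and 1.41, and Sox7 had 0.0536, 0.476, 1.94 and 0.944. Gata6, Foxa1, Nkx2-1 and Nkx2-2 were at least 2-fold above asynchronous cells in late G1, while Gata4 was near its asynchronous value. Gata6 overlaps Gata6os, and all 4 values of Gata4 and Sox7 were below 2.

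In the neural and sensory group 8 of 32 genes had at least 2-fold more signal in late than in early G1 and 3 as much less (7 and 6 with quantile normalization). All but 8 of these genes lie below the median level, where 24.6% and 6.71% of all genes did so, and the group's share of higher genes is near that background. Against asynchronous cells 11 of 31 were higher in late G1 and 2 lower (8 and 4 with quantile normalization), beside 16.9% and 5.14% of all genes and 22% and 5.43% of those below the median level. The mesoderm, heart, vessel and blood factors gave 5 of 22 higher and 2 lower in late against early G1, a balance that turned to 1 higher and 4 lower with quantile normalization. Against asynchronous cells 2 of 21 were higher in late G1 (Irx3 and Pax7) and 1 lower (Sox18), which became 2 and 3 with equal medians and 1 and 5 with quantile normalization. Neither comparison thus gave this group a direction that held under every scaling. The factors with roles in pluripotent, trophoblast or germ cells had the highest asynchronous median of these groups, 12.4, and Dlx4 was the sole 1 of 9 at least 2-fold above its own asynchronous value in late G1.

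Other genes of the same regulatory circuits were counted in the same way. Of 45 further developmental homeobox genes, 19 had at least 2-fold more signal in late than in early G1 and 5 had as much less (9 and 4 with quantile normalization). Over all genes the shares were 15.1% and 7.52%, and they were 24.6% and 6.71% below the median level, where all but 6 of the 45 lie. At or above that level they were 5.88% and 8.32%. Uncx had 1.25 in early G1 and 12.2 in late G1, against 1.32 in asynchronous cells. Of 36 bHLH, T-box and Zic factors, of which 19 lie at or above the median level, 7 were higher and 3 lower, with Neurod1 at 58.5, 129 and 12.4. Among 10 TALE factors, the DNA-binding partners of Hox proteins, 1 was higher and 2 lower, and Pbx2 had 22.3 in early G1 and 6.45 in late G1, against 11.5 in asynchronous cells. The 31 Polycomb subunits repress many of the genes described here, and 25 of them lie at or above the median level. They gave 1 higher and none lower between early and late G1. Against asynchronous cells in late G1 1 was higher (Pcgf3, 30.8 and 10.5) and 2 were lower, among them Cbx2 (13.8 and 35.6). At or above the median level 11.9% of all genes were higher in that comparison and 4.85% lower.

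Markers show what else the libraries hold. All 18 pluripotency factors measured lay at or above the median level, with a summed signal of 73.9 in mitosis and 1648 to 1806 in the other columns. Of 23 fibroblast markers 12 were measured, and their sum was 3.97 in mitosis, then 86.2 in early G1 and 115 in late G1, against 71.4 in asynchronous cells. In late against early G1 6 of the 12 were at least 2-fold higher and none lower (3 and 2 with quantile normalization; background 24.6% and 6.71% below the median level, where all but 2 of the 12 lie), the same direction as for 28 of the regulators, and their part in the result was not tested. Twist1 and S100a4 were listed at 0 in mitosis and no fibroblast marker was at 0 in another column. The 10 extraembryonic endoderm markers outside the group summed to 4.32, 99.4, 101 and 76.5, with 4 higher in late than in early G1, and Pdgfra, on both lists, had 2.48 in early G1 and 6.42 in late G1, against 0.880 in asynchronous cells. The 9 trophoblast markers summed to 108, 121 and 107 outside mitosis and the 8 neural markers to 63.2, 54.1 and 63.0.

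A value of exactly 0 was listed for 12 of the 106 genes (11.3%), against 2.90% of all genes and 4.99% of those below the median level. Level was not held equal here, as 60 of the 106 had a mean signal below the lower quartile of all genes. In 9 it was the mitotic value: Dlx1, Gata2, Hoxa4, Hoxa9, Hoxa11, Hoxb1, Hoxb8, Hoxd11 and Nkx2-6. Asynchronous cells were listed at 0 for Hoxb1, Nkx2-6, Six6 and Gata5. Six6, an eye and pituitary factor, had 0.0342 in mitosis, 2.96 in early G1 and 6.40 in late G1, and Nkx2-6, a pharyngeal and heart factor, had 2.02 in early G1 and 2.15 in late G1. Gata5 alone fell under the minimum mean signal, with 1.36 in late G1 and at most 0.0489 in the other columns.

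Overlap limits how firmly signal can be given to a gene. In RefSeq 47 of the 106 spans overlap another gene, many of them an antisense or opposite-strand transcript, and 52 have a table start site more than 1000 bp from the RefSeq gene's own start or inside another gene. Leaving out the 47 gave 15 of 58 genes with at least 2-fold more signal in late than in early G1 and 7 with as much less. Leaving out the 52 gave 12 and 6 of 53. With every gene kept the counts were 28 and 8 of 104. In these classes were 15.1% and 7.52% of all genes, and 24.6% and 6.71% of those below the median level, where 80 of the 106 lie. Without the 47 or the 52, the share of higher genes was near 24.6% and the share of lower genes above 6.71%. The median log2 ratio relative to the median gene went from 0.51 to 0.40 without the 47 and to 0.35 without the 52. Hoxb9, Sox10, Sox12, Lhx1 and Foxb2, whose values carry several of the comparisons above, are among neither the 47 nor the 52.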

How the data were processed

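PRO-seq was read in 4 groups of cells, with 2 libraries per group in the labels and 1 combined column per group in the table. The values used are the authors' deposited signal per gene, normalized by a method, scale and gene length rule not given in the sources used here, so depth and counting error are unknown. The submitters' processing notes name cutadapt, Bowtie2, Picard and SAMtools and the builds GRCm38 and mm10, with no order. A temporal class per gene is deposited as text.

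Ratios between columns were computed as log2((signal + 0.1)/(signal + 0.1)) for genes with a mean signal of at least 0.5 and no 0 in either column (Python 3.11.15, pandas 2.3.3, numpy 2.4.6), and 2-fold was the threshold. The ratio step was checked by putting known folds into a copy of the deposited columns, so the check covers the arithmetic and not the noise. With 1 column per group no test was possible, and the background over all genes stands beside the main counts. Genes are named where they rank highest or lowest in a comparison, lie at or above the median level, or belong to a role list. The genes and lists were chosen with earlier results of these data known. Alternatives varied the pseudocount, minimum signal, scaling, zeros and overlapping genes. A few genes are counted but not reported by name here.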

Additional observations from a re-analysis of the deposited data

How the results depend on the processing

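Of 150 recomputed values, 120 stayed within their limits (counts within 1.5 times), 29 moved and 1 changed sign. With a pseudocount of 0.5 or 0.02, no minimum signal, zeros kept, or antisense names left out, all 15 values of each setting stayed. Antisense names matched none of the 106 genes. Gata5, the only gene under the minimum, is listed at 0 in early G1 and asynchronous cells and so enters no ratio. Neither of these settings could therefore change a count of the 106 genes. Raising the minimum mean signal to 2.5 left 93 lower genes in mitosis against asynchronous cells at 57 and 93 higher ones in early G1 against mitosis at 57. It left late G1 against early G1 at 15 higher and 3 lower, late G1 against asynchronous cells at 3 lower, and early G1 against asynchronous cells at 9 higher and 9 lower; fewer genes are tested by construction. Scaling to equal medians removes the general fall in mitosis by construction: mitosis against asynchronous cells gave 21 higher and 10 lower, early G1 against mitosis 11 higher and 30 lower, and early G1 against asynchronous cells 9 higher. Quantile normalization does the same and gave 19 higher and 8 lower in mitosis, 12 higher and 18 lower in early G1 against mitosis, 18 higher and 15 lower in late against early G1, and 15 lower in late G1 against asynchronous cells. There the median relative to all genes went from 0.14 to -0.073, and the cause was not tested. Without the 47 overlapping genes the counts were 53 lower in mitosis, 54 higher in early G1 against mitosis, 15 higher in late against early G1, and 14 higher and 4 lower in late G1 against asynchronous cells. Without the 52 genes with displaced or enclosed start sites, a choice made after seeing the data, they were 50 lower in mitosis, 52 higher in early G1 against mitosis, 12 higher in late against early G1, 11 higher in late G1 against asynchronous cells, and 10 lower in early G1 against asynchronous cells, again from fewer genes. No paired analysis was possible because each group has 1 combined column, which also prevents leaving out a replicate. Depth is unknown, so no limit of detection can be given, and low values may carry large counting error.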

Other observations

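Neighbouring genes of 1 family did not always share a course through G1. Dlx3 and Dlx4 start 26.1 kb apart: Dlx3 had 0.712 in early G1 and 3.01 in late G1, against 3.63 in asynchronous cells, and Dlx4 had 2.97, 33.2 and 4.92. Six3 and Six2 start 67.4 kb apart, and Six3 had 1.51, 2.26 and 1.95 where Six2 had 2.70, 0.714 and 1.24. Nkx2-1 and Nkx2-9, 76.4 kb apart, were both at least 2-fold above asynchronous cells in both releases, with late G1 values of 2.95 and 61.3. Nkx2-4 and Nkx2-2, 101 kb apart, were both above as well, at 15.5 and 18.5, though neither Nkx2-4 call, nor the early G1 call of Nkx2-2, held under both rescalings. Dlx1 and Dlx2, 16.9 kb apart, had late G1 values of 3.47 and 1.34 and asynchronous values of 2.53 and 1.15. These pairs were picked after their values were seen, and no test applies to them.

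The Irx genes, which pattern heart, limb and neural tissue, also parted: Irx3 had 5.14 in early G1 and 10.1 in late G1, against 3.55 in asynchronous cells, Irx5 had 4.92, 3.82 and 7.10, and Irx4 had 0.843, 2.17 and 3.92.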
